A study of Homo sapiens with 12 samples.

Results

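Line 79 was one of 3 lines of T24 cells sequenced under the U11 overexpression label, and it was compared here with the other two, lines 86 and 87. The members were chosen by the line label alone: 2 libraries of line 79 were set against 4 libraries of lines 86 and 87, out of 6 overexpression libraries and 12 libraries in the whole series. T24 is an established human bladder cancer cell line with an activating HRAS mutation. All 3 lines belonged to the arm in which T24 cells were transfected with the plasmid pcDNA-U11, a vector that carries the U11 gene, and were then identified, selected as monoclonal cultures and expanded. The labels do not say what the numbers 79, 86 and 87 stand for, nor whether each number is 1 clone. Library titles carry a prefix, R17018 or R18019, and do not state what it marks. Each line had 1 library with each prefix, and so did the T24 controls. The 4 libraries of the knockout comparison were not used here. With 1 line against 2 lines, the p-values below measure the spread between these 6 libraries, and the state of line 79 cannot be told apart from differences that any single selected culture may carry.

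Aligned bases ran from 10.24 to 15.33 gigabases over the 6 libraries and were 9.07 and 13.49 gigabases in the controls. Between 14692 and 14861 genes reached 1 TPM per library (TPM is Stringtie's abundance of a gene per unit of length, with one fixed sum for every library). The 7 markers of T24 on the marker list (KRT7, KRT8, KRT18, KRT19, VIM, CD44 and HRAS) were expressed in all 8 libraries. Of 10 markers of urothelial differentiation, 3 reached 1 TPM in any library. The 3 erythroid markers summed to between 0 and 0.98 TPM in the R17018 libraries and to between 4.31 and 5.73 TPM in the R18019 libraries, and the 5 leukocyte markers to between 0.27 and 1.18 TPM and between 3.06 and 3.51 TPM. Both sums moved with the prefix and not with the line, and their part in the results was not tested.

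U11 is a small nuclear RNA of the minor spliceosome, the machinery that removes the rare U12-type introns. Its 5′ end pairs with the 5′ splice site of these introns, and a uridine-rich stretch further along binds the ring of Sm proteins. The RNA is shown because its level is what the label of these lines names. The sequence below was read from hg38 at chr1:28648600-28648733 on the plus strand, written as DNA. The first capitals mark AAGG, complementary to the CCTT of the U12-type 5′ splice site, and the second mark the Sm site.
RNU11: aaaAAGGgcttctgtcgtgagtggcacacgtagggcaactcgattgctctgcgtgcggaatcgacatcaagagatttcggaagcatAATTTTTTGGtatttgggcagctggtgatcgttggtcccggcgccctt

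U11 stood at 0.18 TPM in the R17018 library of line 79 and at 0.41 TPM in its R18019 library, summed over the 2 overlapping entries of RNU11 in the tables. In line 86 the values were 3.98 and 3.72 TPM, in line 87 they were 61.9 and 53.6 TPM, and in the controls they were 0.03 and 0.62 TPM. Both libraries of line 79 were below all 4 libraries of the other lines and lay between the controls. The mean was 0.297 ± 0.162 TPM (SD, n = 2) in line 79 and 30.8 ± 31.3 TPM (SD, n = 4) in lines 86 and 87. An exact permutation test of the difference of means (two-sided) gave p = 0.133, where the 15 ways to split these libraries allow no less than 0.0667. The lines that formed the reference thus differed from each other by more TPM than line 79 differed from line 86. U11 carries no poly(A) tail, the labels describe polyadenylated RNA and the methods describe depletion of ribosomal RNA, and the part of this step in the U11 values was not tested.

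To ask how line 79 differed from its sister lines, each gene was fitted with limma on log2(TPM + 1), and a gene was called differentially expressed at an unadjusted P under 0.05 with a fold change of at least 1.5. The fit took the 6 libraries as separate samples, although each line label supplied 2 of them, so line 79 itself was not replicated. Of 15457 genes tested, 1059 were called (6.85%), of which 316 were up-regulated in line 79 (2.04%) and 743 were down-regulated (4.81%). After Benjamini-Hochberg adjustment 545 of them stayed under 0.05 (3.53%), 142 up-regulated (0.919%) and 403 down-regulated (2.61%). With the R17018 library of line 79 left out this count was 56, and with its R18019 library left out it was 48. With each chromosome centred on its own median, a setting added after seeing the data, the split was 359 up-regulated and 482 down-regulated. All 1059 called genes had the same sign of difference within both prefixes. The calls were made on these same libraries, so this is not a separate result. Line 79 lay above all 4 other libraries in 1946 genes (12.6%) and below all 4 in 3018 genes (19.5%). The median log2 difference over all genes tested was -0.02.

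The down-regulated genes of line 79 were unevenly spread over the chromosomes. Chromosomes 7 and 10 held 252 of the 743, or 33.9%, and 18.5% of their 1362 tested genes were called down-regulated, against 3.48% of all other genes tested. Among genes with a mean of at least 5 TPM, 880 of 955 on these chromosomes (92.1%) were lower in line 79, and the middle 50 percent of the genes lay between -0.57 and -0.23 on the log2 scale. The difference was thus broad and shallow: 37 of the 252 genes reached a 2-fold fall, and 4 genes on the pair of chromosomes were up-regulated.

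The median log2 difference between line 79 and the other lines was -0.39 on chromosome 7 (530 genes) and -0.41 on chromosome 10 (425 genes). Over both, it was -0.40 among the R17018 libraries and -0.41 among the R18019 libraries. It was -0.40 against line 86 alone and -0.41 against line 87 alone. Against the controls, which the lines share, it was -0.38 for line 79, 0.03 for line 86 and 0.02 for line 87. The lower level was therefore found in both libraries of line 79 and against every reference used.

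Chromosome 7 was not uniform. Up to 45 Mb, within its short arm, the median was -0.22 over 155 genes, and from 65 Mb, on the long arm, it was -0.52 over 352 genes. The share of genes down-regulated rose from 6.51% of 215 genes to 25.7% of 505 genes between these stretches. On chromosome 10 the medians of 11 consecutive windows, of 40 genes each but for the last, ran from -0.53 to -0.34 with no such step. EGFR, the epidermal growth factor receptor on chromosome 7, stood at 46.1 and 58.6 TPM in line 79, and at 54.2 to 58.1 TPM in line 86 and 47.6 to 61.3 TPM in line 87 (log2 difference -0.08, standard error 0.14, adjusted P = 0.801). It was named after its values were seen, as a well known gene of this chromosome.

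A further stretch lay on chromosome 11 between 2 and 50 Mb. There, 59 of 225 genes were down-regulated (26.2%) and the median over 169 genes was -0.46, against -0.03 over the 484 genes of the rest of the chromosome. The median was -0.34 against line 86 and -0.58 against line 87. Line 87 lay above the controls here (0.17), line 86 near them (-0.02) and line 79 below them (-0.40). In all, 23 of 278 windows of up to 40 genes along the genome had a median below -0.3, and all 23 were on chromosomes 7, 10 and 11.

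On some other chromosomes line 79 differed mainly from 1 of the other lines. On chromosomes 13 and 15 line 79 had medians of -0.31 and -0.28 against the controls, line 87 had -0.31 and -0.29, and line 86 had 0.13 and 0.08. One window of chromosome 15 (chr15:80152490-89912882) was an exception, with line 79 at -0.36 against line 86 and -0.24 against line 87. On chromosome 9 from 95 Mb, the medians against the controls were 0.14 for line 79, -0.41 for line 86 and 0.10 for line 87. The median difference of line 79 there was 0.28 from both lines together, 0.56 from line 86 alone and 0.03 from line 87 alone. The 3 windows with a median above 0.3 were all on this arm. No DNA measurement was used here, and the source of these differences along the chromosomes was not tested.

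**Figure D1:**
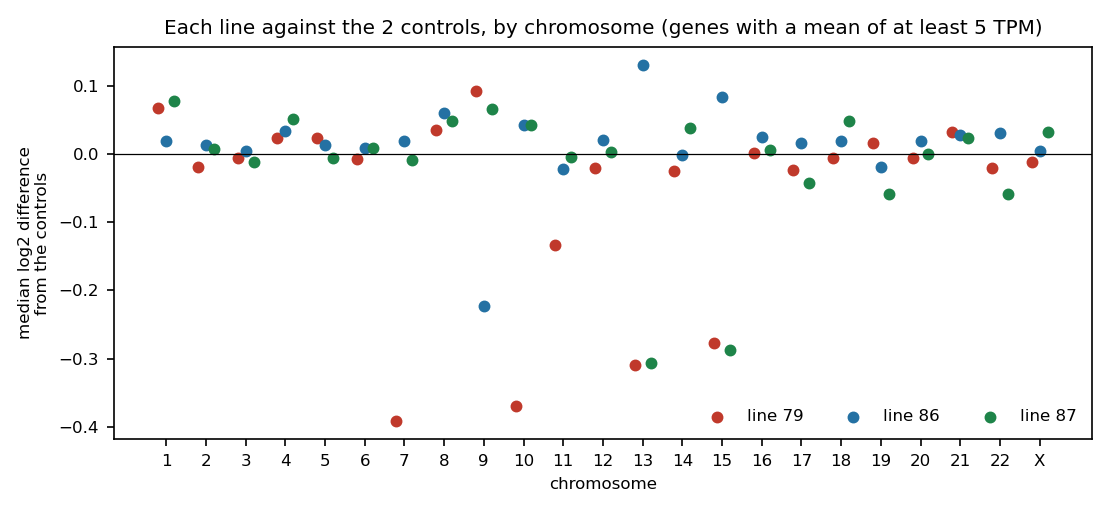
Median log2 difference of each line from the 2 controls on each chromosome, over genes with a mean of at least 5 TPM. Line 79 stands alone near -0.39 on chromosome 7 and -0.37 on chromosome 10, shares its low value with line 87 on chromosomes 13 and 15, and line 86 stands alone on chromosome 9.

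A short run on chromosome 2, from BUB1 to IL1B (chr2:110637698-112836903), completed the set of 4 regions. It was picked out after its values were seen. All 13 of its genes with a mean of at least 5 TPM were lower in line 79, with a median of -0.69, and 10 of the 22 tested were called down-regulated. BUB1, a kinase of the mitotic checkpoint, was at 76.7 and 84.7 TPM in line 79 and at 124 to 144 TPM in the other lines (log2 difference -0.71). TMEM87B was at 12.2 and 12.3 TPM against 23.4 to 27.4 TPM, and CKAP2L, a protein of the mitotic spindle, was at 23.8 and 27.2 TPM against 48.9 to 55.0 TPM. The genes next to the run were not as low as its median. RGPD6 on the near side had a log2 difference of -0.15. On the far side PAX8 had -0.18, and RP11-65I12.1, an entry that overlaps PAX8, had -0.36. Within the run, RGPD8 hardly differed (-0.02). Of the genes in the 4 regions together, 20% of 1609 were down-regulated, against 3.05% of the 13848 genes elsewhere. Of the genes elsewhere 2.25% were up-regulated, and their median was -0.003. All 4 regions were chosen for their low values in these same libraries, so this contrast follows from the choice and is not a separate result.

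At the end of that run stood IL1A and IL1B, which were both among the 15 leading falls of line 79. They encode interleukin 1 alpha and beta, inflammatory cytokines that act on the same receptor. IL1A was at 3.11 and 3.46 TPM in line 79, at 23.5 and 24.9 TPM in line 86, at 24.7 and 26.7 TPM in line 87 and at 7.64 and 9.74 TPM in the controls. IL1B was at 25.4 and 27.9 TPM in line 79, at 144 and 154 TPM in line 86, at 122 and 125 TPM in line 87 and at 62.4 and 62.7 TPM in the controls. Line 79 was thus the lowest and the other lines the highest for both genes, with the controls between them.

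The log2 difference was -2.60 for IL1A (standard error 0.10, adjusted P = 2.86e-04) and -2.31 for IL1B (standard error 0.12, adjusted P = 6.65e-04). Against the controls, IL1A fell by 1.17 in line 79 (adjusted P = 0.00523) and its log2 difference was 1.43 in lines 86 and 87. The same values for IL1B were -1.20 (adjusted P = 0.00406) and 1.10. Both differences between the lines were larger than the median of -0.69 in the run that holds these genes.

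Promoter windows are shown for IL1A and IL1B, as neighbours that differed together, and for NUP210 and TIE1, a near-silent gene and a leading rise described below. They were taken from RefSeq (GRCh38.p14) and reach from 250 bases before to 50 bases after a start of the gene. Both strands were searched for TATAAA, for the AP-1 motif TGANTCA, for the NF-kappa B motif and for the ETS motif CCGGAAGT, and capitals mark the matches. IL1A had 1 TATAAA and 2 TGANTCA matches. The table holds a second window of IL1A, chr2:112784351-112784650, with the same 2 TGANTCA matches and no TATAAA. NUP210 had 1 NF-kappa B match, and the windows of IL1B and TIE1 had none. Of 35116 windows in the table, 11.5% held TATAAA, 7.71% held TGANTCA, 5.91% the NF-kappa B motif and 4.14% CCGGAAGT. IL1A lies at chr2:112784444-112784743 (minus strand), IL1B at chr2:112836730-112837029 (minus strand), NUP210 at chr3:13420273-13420572 (minus strand) and TIE1 at chr1:43300732-43301031 (plus strand).
IL1A: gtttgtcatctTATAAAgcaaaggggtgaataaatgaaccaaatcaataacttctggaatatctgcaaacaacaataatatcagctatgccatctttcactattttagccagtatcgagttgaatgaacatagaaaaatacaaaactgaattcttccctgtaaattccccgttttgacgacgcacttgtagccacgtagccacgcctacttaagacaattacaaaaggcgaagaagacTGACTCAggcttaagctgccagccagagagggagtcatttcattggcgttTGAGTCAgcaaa
IL1B: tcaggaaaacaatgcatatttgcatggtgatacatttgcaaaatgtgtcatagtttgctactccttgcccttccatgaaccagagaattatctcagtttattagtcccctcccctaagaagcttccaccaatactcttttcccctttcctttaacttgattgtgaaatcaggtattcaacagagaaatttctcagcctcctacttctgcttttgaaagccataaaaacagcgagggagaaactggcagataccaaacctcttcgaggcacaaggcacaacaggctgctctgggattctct
NUP210: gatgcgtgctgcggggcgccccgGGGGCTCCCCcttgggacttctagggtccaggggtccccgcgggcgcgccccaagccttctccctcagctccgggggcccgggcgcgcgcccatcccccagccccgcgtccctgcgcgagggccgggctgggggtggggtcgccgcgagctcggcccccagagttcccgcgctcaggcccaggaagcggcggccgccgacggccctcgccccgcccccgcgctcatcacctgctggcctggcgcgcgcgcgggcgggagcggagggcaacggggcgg
TIE1: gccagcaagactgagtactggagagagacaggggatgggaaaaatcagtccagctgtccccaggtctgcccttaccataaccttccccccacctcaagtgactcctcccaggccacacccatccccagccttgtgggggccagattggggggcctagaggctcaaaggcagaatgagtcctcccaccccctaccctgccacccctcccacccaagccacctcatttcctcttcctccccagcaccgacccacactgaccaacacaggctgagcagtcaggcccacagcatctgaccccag

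The rule for named genes took the 15 largest rises and the 15 largest falls among called genes whose mean reached 5 TPM in line 79 or in the others and whose libraries did not overlap, which 694 genes met. Since the absence of overlap was part of the rule, it is not a result for these genes. First among the falls was RNU11 itself (entry ENSG00000270103, log2 difference -3.80, standard error 1.21, adjusted P = 0.148), with the wide spread between lines 86 and 87 described above. It was not called when either library of line 79 was left out.

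Several of the leading falls were genes that line 79 had nearly lost while the other lines and the controls held higher levels. NUP210, a membrane protein of the nuclear pore on chromosome 3, was at 0.13 and 0.17 TPM in line 79, between 9.57 and 12.5 TPM in the other lines, and at 10.03 and 9.72 TPM in the controls (log2 difference -3.38, standard error 0.13, adjusted P = 2.86e-04). TMEM40, on the same arm, was at 1.75 and 1.60 TPM against 22.4 to 27.8 TPM and 23.5 and 24.04 TPM (log2 difference -3.29, adjusted P = 2.86e-04). DMKN, a protein secreted by epithelial cells, was at 0.32 and 0.05 TPM against 7.36 to 15.4 TPM and 16.2 and 15.6 TPM (log2 difference -3.32, adjusted P = 0.00632). For all 3 genes the gap was between line 79 and everything else.

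MARK1, a kinase of microtubule-associated proteins, was at 0.07 and 0.05 TPM in line 79, 3.46 to 7.38 TPM in the other lines and 3.86 and 6.66 TPM in the controls. TMEM178B, on the long arm of chromosome 7, was at 0.08 and 0.06 TPM in line 79. It was at 4.60 and 4.75 TPM in line 86, 11.5 and 11.4 TPM in line 87 and 7.39 and 7.74 TPM in the controls. ZNF503, a zinc finger repressor on chromosome 10, was at 0.98 and 0.73 TPM in line 79 (adjusted P = 0.0713). It was at 22.02 and 17.8 TPM in line 86 and 15.4 and 13.9 TPM in the controls, but at 5.18 and 4.57 TPM in line 87. TMEM178B and ZNF503 fell within regions that were low in line 79, by -2.97 and -2.58 on the log2 scale, far beyond the regional median. GSTM1, a glutathione transferase, was at 3.64 and 3.74 TPM in line 79, 45.3 and 44.4 TPM in line 86 and 22.9 and 19.9 TPM in line 87. GSTM1 has near-identical paralogs, and how the counting divided reads among them was not given in the sources used here.

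In a second set of falls the libraries of lines 86 and 87 lay above the controls. SEL1L3 was at 2.06 and 1.91 TPM in line 79, 13.9 to 17.4 TPM in the other lines and 6.57 and 7.60 TPM in the controls (log2 difference -2.48, adjusted P = 4.88e-04). SERINC2, a serine incorporator family protein, was at 23.2 and 18.97 TPM against 105 to 156 TPM and 84.2 and 75.1 TPM (log2 difference -2.62, adjusted P = 0.00212). LRRN4 was at 3.51 and 2.66 TPM against 25.0 to 34.2 TPM and 20.1 and 18.1 TPM (log2 difference -2.94, adjusted P = 6.87e-04). In each of these, as in IL1A and IL1B, the controls lay between line 79 and the others. The log2 difference of lines 86 and 87 from the controls was 1.04 for SEL1L3 (adjusted P = 0.0292). It was 0.75 for SERINC2 (adjusted P = 0.228) and 0.63 for LRRN4 (adjusted P = 0.256). For line 79 it was -1.44, -1.87 and -2.31 in the same order. The remaining falls were CYS1, a ciliary protein (-2.40), and QPRT, an enzyme of NAD synthesis (-2.34).

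Among the leading rises were 3 genes best known from endothelial cells, which line blood vessels. CDH5, the vascular endothelial cadherin, was at 34.1 and 32.2 TPM in line 79, between 4.17 and 5.28 TPM in the other lines and at 3.43 and 3.08 TPM in the controls (log2 difference 2.62, standard error 0.12, adjusted P = 4.49e-04). TIE1, a receptor tyrosine kinase, was at 21.2 and 17.8 TPM against 1.46 to 2.67 TPM (log2 difference 2.86, adjusted P = 0.00212). EGFL7, a secreted protein, was at 180 and 161 TPM in line 79, 26.6 and 23.6 TPM in line 86 and 87.7 and 74.6 TPM in line 87 (log2 difference 1.89, adjusted P = 0.123), and it was not called when either library of line 79 was left out.

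The 3 endothelial markers on the list (CDH5, PECAM1 and VWF) summed to 34.2 and 32.4 TPM in line 79 and to 4.30 to 5.38 TPM in the other lines, and CDH5 was the only one of them that reached 1 TPM in any library. THBD, thrombomodulin, which endothelial cells also express, was up-regulated as well. The part of other cells in these results was not tested. The 2 adipocyte markers stayed at or below 0.43 TPM in sum.

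Matrix proteins were among the rises of abundant genes. SPOCK1, a secreted proteoglycan, was at 299 and 319.8 TPM in line 79, 64.2 to 82.0 TPM in the other lines and 39.0 and 41.8 TPM in the controls (log2 difference 2.08, standard error 0.12, adjusted P = 0.00104). TGFBI, a matrix protein induced by transforming growth factor beta, was at 235 and 238 TPM in line 79, 58.5 and 57.9 TPM in line 86, 18.1 and 19.4 TPM in line 87 and 52.2 and 49.0 TPM in the controls (log2 difference 2.80, adjusted P = 0.0368). FRAS1, a basement membrane protein, was at 14.05 and 14.2 TPM in line 79, 2.74 to 3.93 TPM in the other lines and 7.58 and 5.02 TPM in the controls (log2 difference 1.87, adjusted P = 0.00263). Against the controls its log2 difference was 1.07 (adjusted P = 0.0302). In all 3 genes both libraries of line 79 were above every other library, by less than 2-fold over the higher control for FRAS1.

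IL33, SMR3B and H19 rose from near 0, and they passed the filter of 1 TPM only through the libraries of line 79. IL33, a cytokine of the interleukin 1 family, was at 6.44 and 6.27 TPM in line 79 and at most 0.49 TPM in the other lines (log2 difference 2.64, adjusted P = 0.00263). SMR3B, a small secreted protein, was at 10.3 and 11.2 TPM against at most 0.84 TPM (log2 difference 3.20, adjusted P = 0.00278). H19, an imprinted long non-coding RNA, was at 8.18 and 2.97 TPM, a spread of its own, against 0.24 to 0.72 TPM (log2 difference 2.01, adjusted P = 0.0255). GRAMD1B, a cholesterol transporter of the endoplasmic reticulum, was at 45.4 and 69.1 TPM in line 79, 1.02 and 1.16 TPM in line 86, 8.47 and 9.52 TPM in line 87 and 3.66 and 2.45 TPM in the controls (log2 difference 3.64).

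For TNC, AMOT, SNORD18C and C5orf46 the difference went at least in part with low values in the reference lines. TNC, the matrix protein tenascin C, was at 10.3 and 10.03 TPM in line 79 and at 12.3 and 11.7 TPM in the controls, but at 5.45 and 3.75 TPM in line 86 and at 0 and 0.02 TPM in line 87 (adjusted P = 0.205). AMOT, the angiomotin scaffold, was at 7.15 and 7.91 TPM in line 79, at most 3.01 TPM in line 86 and at most 0.01 TPM in line 87. Its controls, at 4.66 and 3.42 TPM, lay below line 79 as well. For C5orf46 line 79 was at 46.6 and 59.6 TPM and the controls were at 38.1 and 44.7 TPM. All 4 genes were lowest in line 87, their adjusted P values ran from 0.121 to 0.236, and none was called when either library of line 79 was left out. TMEM256-PLSCR3, a readthrough transcript that overlaps its parent genes, had the largest fitted rise (4.18), but its controls were at 0.03 and 29.1 TPM, so its level differed as much between the controls.

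**Figure D2:**
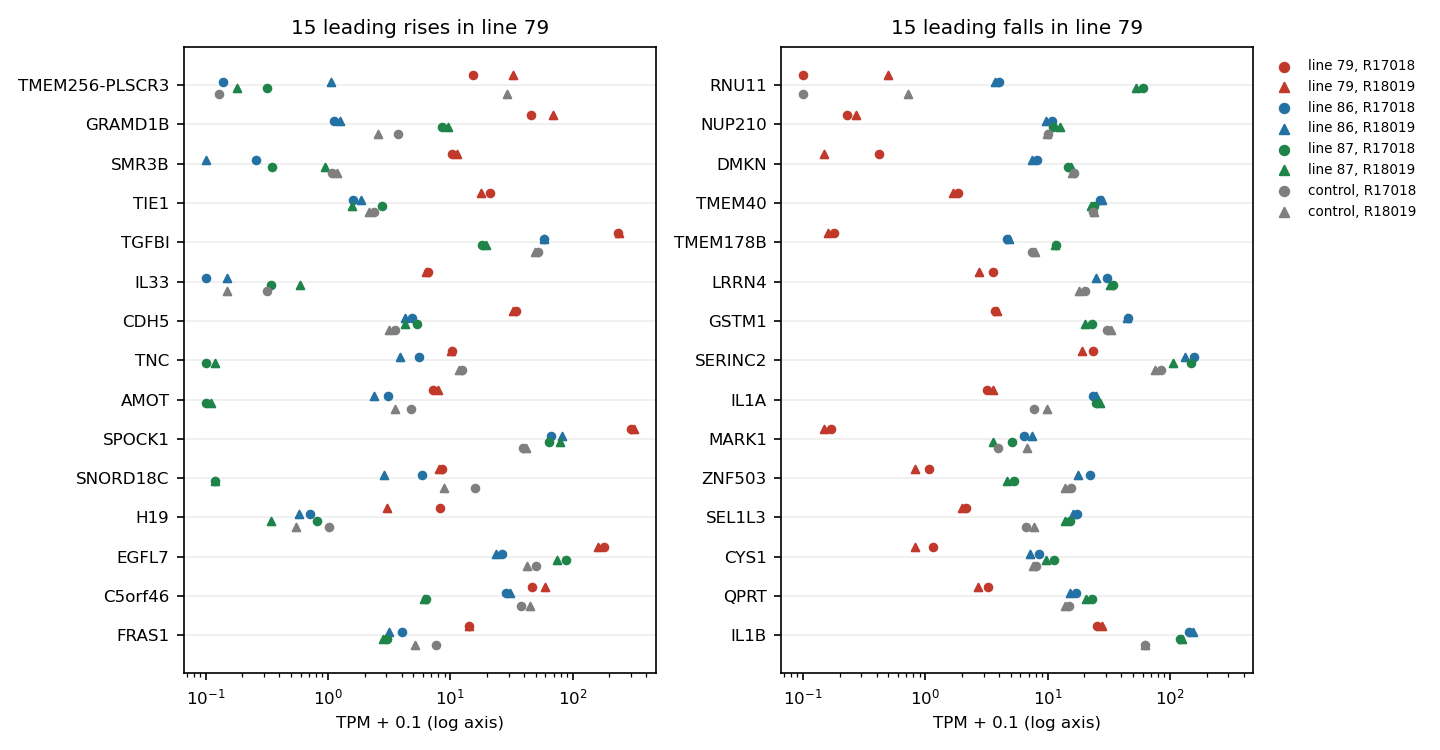
TPM + 0.1 on a logarithmic axis for the 15 leading rises and the 15 leading falls, with 1 point per library, coloured by line and shaped by title prefix. NUP210, TMEM40 and DMKN show line 79 apart from all other libraries, whereas TNC and AMOT show line 87 apart.

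The interleukin 1 family holds cytokines, their receptors and a binding protein, and 6 of its 8 tested members were called: 4 up-regulated (IL33, IL1R1, IL18R1 and IL18BP) and 2 down-regulated (IL1A and IL1B). These are 50% and 25% of the members, against 2.04% and 4.81% of all genes tested. The median was 0.52 against -0.02 for all genes. IL33, IL1R1 and IL18R1 reached 1 TPM only in line 79 and so passed the filter only through its libraries. The share of rises and the median of this list are thus in part set by the filter. IL1R1, the signalling receptor of interleukin 1, was at 2.63 and 2.79 TPM in line 79 and between 0.41 and 0.81 TPM in the other lines (log2 difference 1.24, adjusted P = 0.0135). IL18R1, a chain of the interleukin 18 receptor, was at 1.14 and 1.85 TPM and was listed at 0 in all 4 other libraries, and it overlaps IL1RL1 in the annotation. Cytokine genes of the family thus went both ways, and the receptor genes named rose from low levels.

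Epidermal growth factor ligands and receptors also moved in both directions. Of 12 tested, HBEGF was up-regulated and ERBB3, AREG, EREG, NRG1 and NRG2 were down-regulated (8.33% and 41.7%, against 2.04% and 4.81% of all genes). Against line 87 alone 3 were down-regulated. HBEGF, heparin-binding EGF-like growth factor, was at 131 and 129 TPM in line 79 and at 66.0 to 80.3 TPM in the other lines (log2 difference 0.83, adjusted P = 0.0135). AREG, amphiregulin, was at 4.95 and 4.63 TPM against 7.55 to 9.11 TPM (log2 difference -0.68, adjusted P = 0.0256), and EREG, epiregulin, was at 23.6 and 24.7 TPM against 33.0 to 57.3 TPM (adjusted P = 0.107). None of these 5 falls lay in the 4 regions.

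Collagens and laminins form the scaffold of the extracellular matrix, and matricellular proteins act on cells from within it. Of 25 collagens and laminins, 5 were up-regulated (COL4A1, COL4A6, COL6A1, COL6A2 and COL7A1) and 4 down-regulated. These are 20% and 16%, against 2.04% and 4.81% of all genes tested. Of the 25, 13 lay above all 4 other libraries, as did 12.6% of all genes, and the median was 0.30. COL6A1, a chain of the microfibril collagen VI, was at 500 and 464 TPM in line 79 and at 204 to 230.2 TPM in the other lines (log2 difference 1.17, standard error 0.08, adjusted P = 0.00212). LAMB1, a laminin chain on chromosome 7, was at 39.3 and 38.1 TPM against 99.2 to 124 TPM (log2 difference -1.53, adjusted P = 0.00222). Of 19 matricellular proteins, SPOCK1, THBS2, TNC, EFEMP1 and TGFBI were up-regulated (26.3%) and VCAN was down-regulated (5.26%). EFEMP1, a fibulin, was at 1005 and 1063 TPM against 527 to 659 TPM (log2 difference 0.76, adjusted P = 0.0144).

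Of 25 epithelial and mesenchymal genes tested, SNAI1 and SNAI2, repressors of epithelial genes, were up-regulated (8%, against 2.04% of all genes). OCLN, CLDN1 and PKP2, which encode proteins of cell junctions, were down-regulated (12%, against 4.81% of all genes). Of the 25, 17 were lower in line 79 and 8 higher at any size of difference, with a median of -0.29. SNAI1 was at 10.2 and 8.31 TPM in line 79 and at 2.12 to 3.12 TPM in the other lines (log2 difference 1.47, adjusted P = 0.00798). CLDN1 was at 53.4 and 54.9 TPM against 111 to 135 TPM (log2 difference -1.16, adjusted P = 0.00492). The other 20 were not called, among them VIM, the intermediate filament vimentin, with a log2 difference of -0.40. With limma 0 of 10 keratins were called, and 2 had an unadjusted P under 0.05, 1 in each direction.

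Glycolysis and hypoxia genes were called as rises against both lines together. Of 37 tested, PFKFB4, ALDOC, NDRG1, ANGPTL4 and SLC16A3 were up-regulated with limma (13.5%, against 2.04% of all genes) and all 5 passed adjustment (0.919% of all genes). With limma 0 were down-regulated, and 4 were lower at an unadjusted P under 0.05 with a smaller fold. Against line 86 alone 4 were up-regulated and 1 down-regulated, and against line 87 alone 8 and 1. Of the 37, 10 lay in the 4 regions that were low in line 79. SLC16A3, the lactate exporter, was at 744 and 674 TPM in line 79 and at 364 to 442 TPM in the other lines (log2 difference 0.81, adjusted P = 0.0135). NDRG1, a stress-induced gene, was at 19.5 and 20.3 TPM against 9.19 to 10.95 TPM (log2 difference 0.93, adjusted P = 0.00798). The median of the list was 0.08, and 15 of the 37 lay above all 4 other libraries, as did 12.6% of all genes tested.

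In transforming growth factor beta and BMP signalling, BMP6, ID1 and TGFBI were up-regulated and GDF15 was down-regulated among 32 tested. These are 9.38% and 3.12%, against 2.04% and 4.81% of all genes. BMP6, a ligand, was at 4.59 and 3.59 TPM against 1.02 to 1.29 TPM, and ID1, a direct target of BMP signalling, was at 453 and 464 TPM against 226 to 249 TPM (log2 difference 0.96, standard error 0.07, adjusted P = 0.00236). The insulin-like growth factor system had 4 members up-regulated (IGF1R, IGFBP3, IGFBP4 and H19) and 2 down-regulated (IGFBP5 and IGF2BP3) of 15, or 26.7% and 13.3%. IGFBP3, a binding protein encoded on the short arm of chromosome 7, was at 92.6 and 94.6 TPM against 47.3 to 60.8 TPM, which made it 1 of the 4 up-regulated genes on chromosomes 7 and 10.

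Among genes of complement and coagulation, F2RL1, THBD and CLU were up-regulated, and the thrombin receptor family member F2RL2 was down-regulated. The rises were 16.7% of 18 tested, against 2.04% of all genes. THBD, thrombomodulin, was at 21.98 and 19.6 TPM against 7.70 to 8.63 TPM (log2 difference 1.24, adjusted P = 0.00325). Of 12 genes of plasminogen activation, the inhibitors SERPINB2 and SERPINB7 were down-regulated (16.7%, against 4.81% of all genes). SERPINB2 was at 1.31 and 1.66 TPM in line 79, 6.28 and 7.51 TPM in line 86 and 16.7 and 18.1 TPM in line 87, with 2.24 and 2 TPM in the controls. Of 8 hyaluronan genes, the synthases HAS2 and HAS3 were down-regulated (25%, against 4.81% of all genes). HAS2 was at 2.66 and 2.81 TPM against 12.8 to 22.4 TPM (log2 difference -2.29, adjusted P = 0.00798).

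Of 29 p53 targets, CDKN1A, FAS, DDB2 and GDF15 were down-regulated (13.8%, against 4.81% of all genes), all 4 after adjustment (2.61% of all genes), and 2 others were higher at an unadjusted P under 0.05 with a smaller fold. FAS lies on chromosome 10, where it overlaps ACTA2, and DDB2 lies in the low stretch of chromosome 11. CDKN1A, the cell cycle inhibitor p21, was at 13.5 and 12.6 TPM in line 79 and at 21.3 to 28.7 TPM in the other lines (log2 difference -0.88, adjusted P = 0.0307). In the controls it was at 19.1 and 16.5 TPM. Of 24 targets of NRF2, the factor of the oxidative stress response, HMOX1 was up-regulated and NQO1, TXNRD1, SLC7A11 and ABCC3 were down-regulated. These are 4.17% and 16.7%, against 2.04% and 4.81% of all genes. SLC7A11, the cystine transporter, was at 19.1 and 20.6 TPM against 44.7 to 49.3 TPM (log2 difference -1.22, adjusted P = 0.00212).

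The interferon genes depended on the line used as reference. Of 47 tested, 8 were down-regulated in line 79 (IFI27, IFIT2, IFIT3, MX2, BST2, TRIM22, EPSTI1 and GBP2), 2 of them after adjustment. The 8 are 17% of the list, against 4.81% of all genes, and the list median was -0.23. Against line 86 alone 4 were down-regulated and 5 up-regulated, and against line 87 alone 23 were down-regulated. BST2, the membrane protein tetherin, was at 46.6 and 44.98 TPM in line 79, 86.7 and 86.0 TPM in line 86, 158 and 157 TPM in line 87 and 184 and 188 TPM in the controls. Of the 8, 3 lay in the 4 regions, with IFIT2 and IFIT3 among them.

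Of 35 NF-kappa B subunits and targets, BCL2A1 and CCL5 were up-regulated and NFKB2, BIRC3, SOD2 and MAP3K8 were down-regulated, with a median of -0.30, or -0.17 over the members outside the 4 regions. Of 51 genes of mitosis, BUB1, KIF18A, CKAP2L and FOXM1 were down-regulated, and the median was -0.22. Of the 51, 29 lay below all 4 other libraries, as did 19.5% of all genes tested. BUB1, KIF18A and CKAP2L were in the 4 regions, and the median outside them was -0.15. Of 45 genes of DNA replication 2 were down-regulated. The shares down-regulated were 11.4% of the NF-kappa B list, 7.84% of the mitosis list and 4.44% of the replication list, against 4.81% of all genes. The 4 regions held 5, 9 and 5 of their members.

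**Figure D3:**
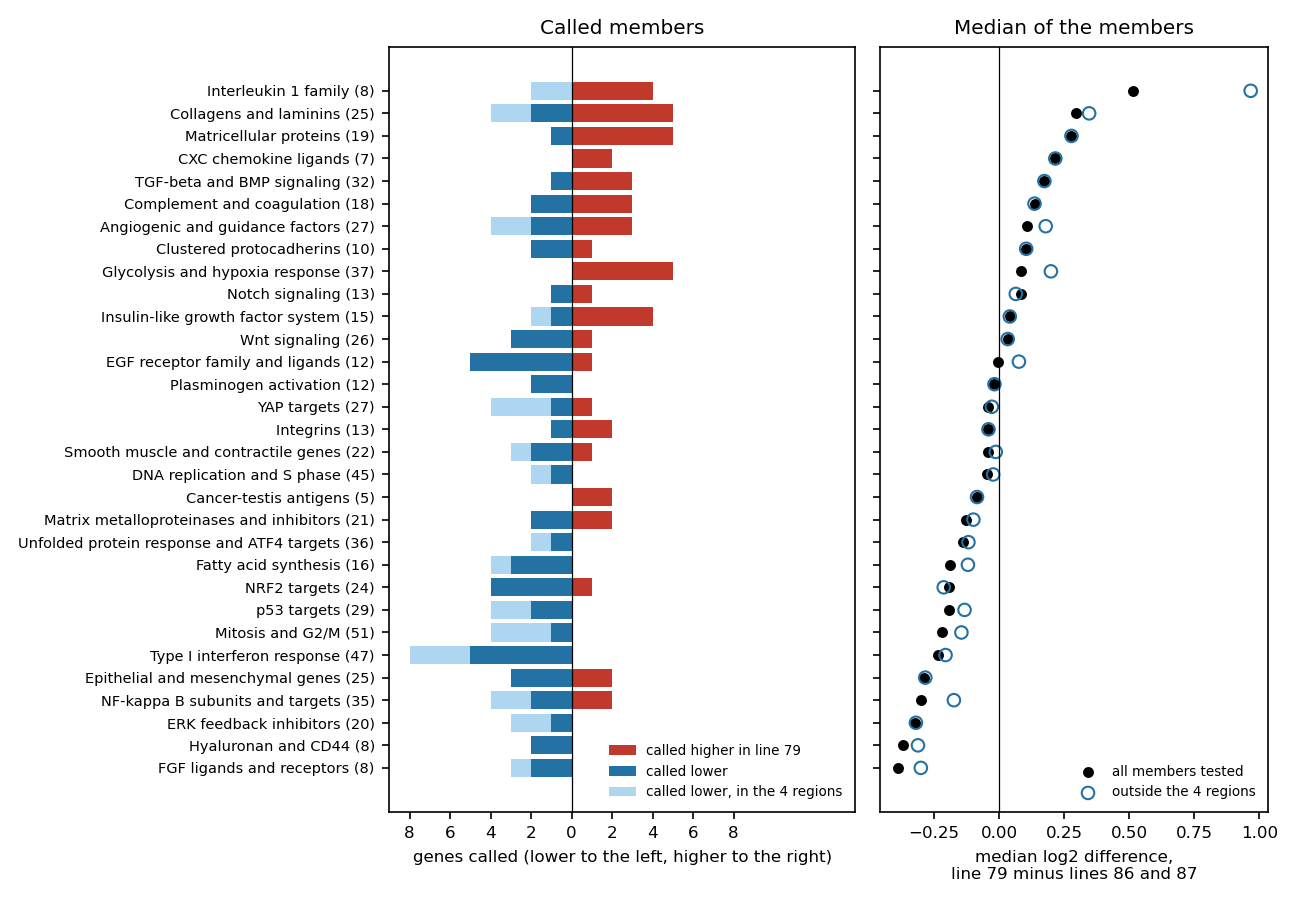
Left, the number of members called in line 79 for each gene list with at least 2 called members, with falls in the 4 regions in light blue and the number tested in brackets. Right, the median log2 difference over all members and over those outside the 4 regions. Glycolysis and hypoxia genes have 5 rises, and interferon genes have 8 falls, 3 of them in the 4 regions.

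U11 is part of the minor spliceosome, and with limma 0 of the 16 tested proteins of this machinery were called, 1 had an unadjusted P under 0.05, and their median was -0.03. Of 465 genes with a U12-type intron, 2 were up-regulated (0.43%, against 2.04% of all genes) and 24 down-regulated (5.16%, against 4.81%), with a median of -0.04, and 12 of the 24 lay in the 4 regions. Splicing itself was not measured here.

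The genes followed here from the study, other than U11, were CXCL1, CXCL2, CXCL3, CXCL6, CXCL8, FN1, RPL22L1, MDM2, TGFB2 and TIMP1. Of these only CXCL3 and CXCL6 were called against lines 86 and 87 together. FGF1, which the study's discussion also names, was down-regulated but did not pass adjustment, and is given with the FGF genes below. Of 7 CXC chemokine ligands tested, CXCL3 and CXCL6 were up-regulated (28.6%, against 2.04% of all genes). Against line 87 alone 2 were up-regulated, but against line 86 alone 0 were with limma and 1 was down-regulated. CXCL6 was at 115 and 112 TPM in line 79, 83.5 and 87.3 TPM in line 86, 62.0 and 59.0 TPM in line 87 and 36.4 and 32.6 TPM in the controls (log2 difference 0.65, adjusted P = 0.0999). CXCL3 had a log2 difference of 0.63 (adjusted P = 0.0376). The values were 0.33 for CXCL1, 0.20 for CXCL2 and 0.16 for CXCL8, with adjusted P of 0.2, 0.582 and 0.729.

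FN1, fibronectin, was at 1838 and 1777 TPM in line 79, 2005 and 1906 TPM in line 86 and 1074 and 1069 TPM in line 87, so that line 79 lay near line 86 and above line 87 (log2 difference 0.32, adjusted P = 0.613). Against line 87 alone FN1 was called, with a log2 difference of 0.75. RPL22L1, a ribosomal protein paralog, had a log2 difference of -0.17, MDM2, the inhibitor of p53, had -0.40, TGFB2 had 0.24 and TIMP1 had 0.08, and none was called. Their adjusted P values ran from 0.313 to 0.697. MDM2 was at 31.6 and 22.6 TPM in line 79, 50.1 and 24.3 TPM in line 86 and 20.5 and 63.2 TPM in line 87. Libraries of the same line thus differed widely, and the lack of a call does not show that MDM2 levels were alike.

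Line 79 and the other lines were each compared with the same 2 controls, which ties these comparisons to each other. Line 79 had 1096 called genes (7.09%), of which 344 were up-regulated (2.23%) and 752 down-regulated (4.87%). Lines 86 and 87 together had 317 (2.05%), of which 159 were up-regulated (1.03%) and 158 down-regulated (1.02%), with libraries of 2 different lines in that group. For CDH5 the log2 differences from the controls were 3.01 in line 79 and 0.39 in lines 86 and 87, and for SPOCK1 they were 2.91 and 0.83. For NUP210 they were -3.24 and 0.13. The genes that set line 79 apart from the other lines thus also set it apart from the controls in these 3 cases.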

How the data were processed

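RNA of T24 cells was sequenced as paired ends, and the authors cleaned reads with fastp, aligned them to hg38 with Hisat2 and ran Stringtie on each library (versions not given in the sources used here). The authors deposited one gene table per library with coverage (mean aligned bases per position), FPKM (fragments scaled by gene length and depth) and TPM for 60504 genes. Aligned bases were derived from the limit of the coverage to FPKM ratio, shared by 13.7% to 14.3% of genes. The study's DESeq2 step needs counts and was not repeated. The kit named does not mark strand, so reads of overlapping or antisense genes could not be told apart.

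A gene was tested if it reached 1 TPM in any 2 of the 6 libraries. Values entered limma (version 3.58.1, run under R 4.3.3) as log2(TPM + 1), which understates the folds of low genes, and eBayes was given a mean-variance trend. No depth-based interval is given, since TPM keeps no counts. The fitting code was tested on simulated data. U11 was tested with an exact permutation test. Members and gene lists were chosen with earlier results of these data known. Of the 45 lists, 44 were compiled by hand. The list of genes with a U12-type intron came from a scan of 402166 GENCODE 44 introns for ATATCCTT or GTATCCTT at the start. Lists were described by counts and medians only. The result of 1 list member is not reported here, but totals and plotted list counts include it. The named genes were the 15 largest rises and falls that passed the rule in the report, genes taken from the study, and list members. Chromosome medians used genes with a mean of at least 5 TPM, and the 4 regions were chosen after seeing the data. Groups, replicate numbers and prefixes came from the labels. Replicate 1 carried the prefix R17018 and replicate 3 the prefix R18019 in each line. Python 3.11.15, numpy 2.4.6, pandas 2.3.3 and matplotlib 3.10.9 were used. The alternatives are listed with their effect in the closing section.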

Additional observations from a re-analysis of the deposited data

How the results depend on the processing

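The counts of 1059 called, 316 up-regulated and 743 down-regulated genes stayed within 1.5 times under a pseudocount of 0.1, median ratio scaling, quantile normalization, no filter, no trend, 3 line labels in the fit, the mean of each line and added controls. The replicate block pairs libraries by number, which goes with the title prefix. The deviations of same-numbered libraries from their line means correlated at 0.0992 to 0.16, so the pairing is not established. This fit gave 1025 called genes, 303 up-regulated and 722 down-regulated, 377 of them after adjustment, and for the U11 difference of -30.5 TPM an exact permutation p of 0.222. It ended the call of TNC, SNORD18C and C5orf46 and of no other leading gene. FPKM in place of TPM gave 680 called and 464 down-regulated genes, since a pseudocount of 1 weighs more on its smaller values. A filter of 1 TPM in all 6 libraries gave 201 up-regulated genes. A 2-fold threshold gave 280 called genes, 98 up-regulated and 182 down-regulated. Line 86 alone as the reference gave 562 up-regulated genes and 904 after adjustment, and line 87 alone gave 488 up-regulated genes.

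The count of 545 after adjustment was the least stable. It was 320 with no filter, where more genes were tested, 944 with 3 line labels in the fit, and 0 with limma on the mean of each line, where 878 genes still passed the unadjusted threshold. Leaving out 1 library gave between 48 and 414, with 56 without the R17018 library of line 79 and 48 without its R18019 library, each of which left 1 library that is assumed to vary like the others. Without the R18019 library of line 86, or the R17018 or R18019 library of line 87, it was 337, 337 and 353. The counts of called, up-regulated and down-regulated genes then ranged from 977 to 1128, 281 to 353 and 696 to 779, and the U11 difference from -39.5 to -20.1 TPM. Leaving out either library of line 79 ended the calls of TNC, AMOT, SNORD18C, EGFL7, C5orf46 and RNU11. Leaving out either library of line 87 ended those of TNC, SNORD18C and C5orf46. No leading gene changed direction under the alternatives.

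Chosen after seeing the data, leaving out chromosomes 7 and 10 gave 491 down-regulated genes and 265 after adjustment, leaving out the 4 regions gave 422 and 213, and centring each chromosome gave 482 and 300. The smaller counts follow from the genes removed or shifted. Dixon's test on U11 and the named genes flagged no library among the 4 of lines 86 and 87. These are 2 libraries of each line, so where the lines differ the test can hardly flag 1 library, and no conclusion is drawn from it. TPM holds no counting error, so low values have no interval.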

Other observations

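Among lists not described above, guidance and angiogenic factors moved both ways in line 79. Of 27 tested, ANGPTL4, SEMA3F and EPHA4 were up-regulated and VEGFC, NRP1, SEMA3D and NTN4 were down-regulated, 2 of these in the 4 regions. The shares were 11.1% and 14.8%, against 2.04% and 4.81% of all genes tested. SEMA3F, a secreted semaphorin, was at 73.0 and 66.0 TPM in line 79, 16.3 to 25.4 TPM in the other lines and 22.1 and 19.8 TPM in the controls (log2 difference 1.68, standard error 0.19, adjusted P = 0.0101). Of 8 metallothioneins and zinc response genes, MT1X was up-regulated, at 99.0 and 92.9 TPM against 36.4 to 43.3 TPM (log2 difference 1.23, adjusted P = 0.00273). MT1X has near-identical paralogs and overlaps MT1A in the annotation. Of 26 Wnt genes, the receptor FZD4 was up-regulated (3.85%) and WNT5B, WNT7B and ROR1 were down-regulated (11.5%). WNT5B, a ligand, was at 8.29 and 7.96 TPM against 19.4 to 25.5 TPM (log2 difference -1.35, adjusted P = 0.0058).

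Growth factor feedback and lipid genes had falls. Of 20 ERK feedback inhibitors, DUSP5, ETV1 and PHLDA1 were down-regulated (15%, against 4.81% of all genes tested), the first 2 on chromosomes 10 and 7. Of 8 FGF genes, FGF1, FGFRL1 and FGFBP3 were down-regulated (37.5%). Of 16 genes of fatty acid synthesis, ELOVL6, FADS3, ACSL4 and ACSL5 were down-regulated (25%). ELOVL6, an elongase, was at 16.2 and 11.5 TPM against 23.3 to 28.1 TPM (adjusted P = 0.0276). With limma 0 of 25 genes of cholesterol synthesis were called, and 6 had an unadjusted P under 0.05, 1 higher and 5 lower. Of 27 YAP targets, IGFBP3 was up-regulated (3.7%, against 2.04% of all genes). NT5E, TEAD1, FJX1 and MYOF were down-regulated (14.8%), 3 of the 4 in the 4 regions.

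Of 22 contractile genes, ACTG2 was up-regulated and ACTA2, MYL9 and TNNT1 were down-regulated (4.55% and 13.6%, against 2.04% and 4.81% of all genes tested). ACTG2, a smooth muscle actin, was at 14.7 and 12.9 TPM in line 79, 3.24 to 6.86 TPM in the other lines and 32.6 and 31.2 TPM in the controls, so that line 79 lay between them. Of 13 integrins, ITGA2 and ITGA5 were up-regulated and ITGB2 was down-regulated (15.4% and 7.69%). Of 21 matrix proteases and inhibitors, MMP16 and ADAM19 were up-regulated and MMP17 and ADAMTS12 were down-regulated (9.52% each).

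The other lists had at most 3 called members. Over all genes tested, 2.04% were up-regulated and 4.81% down-regulated. Of 13 Notch genes NRARP was up-regulated and MAML2 down-regulated. Of 5 cancer-testis antigens SPANXA1 and SPANXB1, which are near-identical copies, were up-regulated. Of 10 clustered protocadherins PCDHB14 was up-regulated, and PCDHGA10 and PCDHGC3, which overlap other genes of their cluster, were down-regulated. Of 19 BCL2 family genes BCL2A1 was up-regulated. Single falls were B2M of 18 HLA class I and antigen processing genes (5.56%), HSPB1 of 18 heat shock proteins (5.56%) and AKR1B1 of 10 prostaglandin genes (10%). FABP4 of 11 urothelial genes (9.09%) and MT-RNR2 of 15 mitochondrially encoded genes (6.67%) were also single falls. ASNS and SLC7A11 were down-regulated of 36 genes of the unfolded protein response and ATF4 targets (5.56%). With limma 0 of 11 S100 proteins, 0 of 37 HOX genes and 0 of 21 immediate early genes were called, with 2, 5 and 2 at an unadjusted P under 0.05. Against line 86 alone, 6 HOX genes were called down-regulated.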
